A study of Sus scrofa with 24 samples.

Results

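The growth hormone receptor and the insulin-like growth factor (IGF) axis were examined in the longissimus dorsi, a back muscle, of 24 pigs. The 9 genes GHR, IGF1, IGF2, IGF1R, IGF2R, IGFBP3, IGFBP4, IGFBP5 and IGFBP6 were taken by symbol from the deposited table. All 9 were found, with 13 listed transcripts of 22154 in all, or 9 genes of 12017. The pigs were F1 crosses of Duroc boars with Luchuan sows, fed alike at 1 farm and slaughtered at 210 ± 6 days of age. Samples were taken 25 minutes after death, and libraries of polyA RNA were read as pairs of 150 bases. By label, 12 pigs were high and 12 were low in intramuscular fat (IMF), the fat laid down between muscle fibres. Cross, diet, age and muscle were shared by both groups, no pig was treated, and each pig gave 1 library. The fat content, litter and sex of single animals were not used here. Animals are numbered within their group in the order of their records, so a number names a pig and pairs none.

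Growth hormone from the pituitary binds GHR, a cytokine-type receptor that signals through the kinase JAK2 and the factor STAT5, and in liver this drives the release of IGF1 into blood. Muscle also makes IGF1 and IGF2 locally. Both growth factors act through the receptor tyrosine kinase IGF1R, which promotes protein synthesis and muscle growth, while IGF2R binds IGF2 and carries it to the lysosome. The IGF-binding proteins hold IGFs in blood and tissue and set how much reaches the receptors. In fat cells growth hormone acts against lipid storage.

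Values are FPKM, sequenced fragments scaled to transcript length and library size, so levels can be set side by side between genes. A gene's value is the sum over its listed transcripts. Libraries were estimated at 32.9 to 40.8 mega reads each (M), so that 1 read per kilobase of transcript stood for 0.0245 to 0.0304 FPKM. All 12 muscle fibre markers were listed, with a summed level of 40585 ± 8159 FPKM in high IMF pigs and 46797 ± 8038 FPKM in low IMF pigs (SD, n = 12 each). Of these markers MB averaged 0.408 FPKM in high IMF pigs and 0.628 FPKM in low IMF pigs, near 0 for a gene of abundant muscle protein. The 8 adipocyte markers, all listed, summed to 115 ± 40.1 FPKM in high IMF pigs (65.7 to 207) and to 62.1 ± 31.0 FPKM in low IMF pigs (32.2 to 149). Most of that sum was FABP4 (64.4 FPKM in high and 37.6 FPKM in low IMF pigs) and ADIPOQ (27.1 and 10.3 FPKM). All 8 had a higher mean in high IMF pigs. By ratio PLIN1 differed least, at 8.75 FPKM in high and 7.50 FPKM in low IMF pigs (medians 7.43 and 7.36). Of 5 hepatocyte markers 1 was listed, APOA1, at 2.96 FPKM in high IMF pigs and 3.82 FPKM in low IMF pigs. In whole muscle, fewer cells of a type and less RNA per cell cannot be told apart.

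Differences were tested with limma on log2(FPKM + 1), with Benjamini-Hochberg adjustment over 11757 genes, and a call means an adjusted p under 0.05. Of the 9 genes 0 were called, against 6 of all genes tested (0.051%). At an unadjusted p under 0.05 there were 2 of the 9, GHR and IGF2, both with higher values in high IMF pigs, against 7.68% of all genes. Of the 9 genes 5 had a positive log2 fold change, against 73.4% of all genes, whose median log2 fold change was 0.08. After TMM scaling, with a median of -0.0012 over all genes, the same 2 genes had an unadjusted p under 0.05, against 5.08% of all genes, and 3 of the 9 had a positive value, against 49.7% of all genes. Among the 13 transcripts limma called 0, against 0.0187% of all 21405 transcripts tested, and 2 had an unadjusted p under 0.05, against 6.34%.

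GHR lies on the plus strand of chromosome 16, bases 27126352 to 27422616 of Sscrofa11.1. Its summed level was 19.0 ± 8.72 FPKM in high IMF pigs (lowest 5.49, median 18.1, highest 33.6) and 10.8 ± 7.74 FPKM in low IMF pigs (lowest 1.65, median 10.8, highest 29.3; SD, n = 12 each). The groups overlapped: 10 of 12 high IMF pigs lay above the low IMF median, and 2 of 12 low IMF pigs lay above the high IMF median. The log2 fold change was 0.91 (SE 0.35, 95% interval 0.20 to 1.62), with an unadjusted limma p of 0.0138 and an adjusted p of 0.538. Leaving out 1 pig at a time gave 0.75 to 1.06. The adipocyte marker sums given above also differed between the groups, and their part in the GHR values was not tested.

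The table lists 3 GHR transcripts. ENSSSCT00000049727, with 10 exons and 3138 bases, and ENSSSCT00000065320, with 9 exons and 2724 bases, come from the reference annotation. The other, MSTRG.5860.2, was added by the authors' assembly. It has 10 exons and 4025 bases, starts at the same base as ENSSSCT00000065320 (27126700), and ends 1224 bases farther downstream, at 27422616. RefSeq ends the gene at 27422618, so the longer end lies inside its annotated span. The 3 transcripts overlap on 1 strand, so the split of reads between them is an estimate of the authors' assembly.

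MSTRG.5860.2 carried the difference in the sum. It was at 14.5 ± 7.79 FPKM in high IMF pigs (lowest 0.752, median 14.9, highest 24.3) and 5.31 ± 7.77 FPKM in low IMF pigs (lowest 0, median 0.823, highest 23.7). It was below 1 FPKM in 1 of 12 high IMF pigs and in 6 of 12 low IMF pigs, and it was listed at 0 in none of the high and 5 of the low IMF pigs (animals 2, 3, 5, 7 and 12). A listed 0 can be a failed estimate, and each of those 5 pigs had reads on the other 2 transcripts. MSTRG.5860.2 was above 0 in 19 of 24 pigs, the fewest that any listed transcript has. Given its 5 zeros in low IMF pigs, a zero in a high IMF pig would have put it below that number. The zero counts of the 2 groups are therefore not independent of its being listed, and they are given as a description. The p-values of this transcript, of the GHR sum and of the GHR shares use the same values. They carry the same limit and are no separate evidence of a difference. The log2 fold change was 2.04 (SE 0.60, interval 0.80 to 3.29), with an unadjusted limma p of 0.00243 and an adjusted p of 0.457. Because it contains zeros its size depends on the pseudocount, and it was 3.59 with 0.1 in place of 1. In the authors' deposited table the fold of low over high IMF for MSTRG.5860.2 was 0.331, with a p-value of 0.01516 and q-values of 0.821, 0.673 and 0.353.

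Over all pigs the reference transcripts had log2 fold changes near 0. ENSSSCT00000049727 was at 3.89 ± 2.15 FPKM in high IMF pigs (1.81 to 8.66) and 4.802 ± 3.28 FPKM in low IMF pigs (1.43 to 12.8), a log2 fold change of -0.17 (interval -0.71 to 0.38; limma p 0.532, adjusted p 0.946). ENSSSCT00000065320 was at 0.597 ± 0.248 FPKM in high IMF pigs and 0.697 ± 0.383 FPKM in low IMF pigs, a log2 fold change of -0.07 (interval -0.30 to 0.16; limma p 0.543, adjusted p 0.948). When GHR was summed over the reference transcripts alone, its log2 fold change was -0.16. The sign of the GHR sum thus depends on the assembled transcript.

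**Figure D1:**
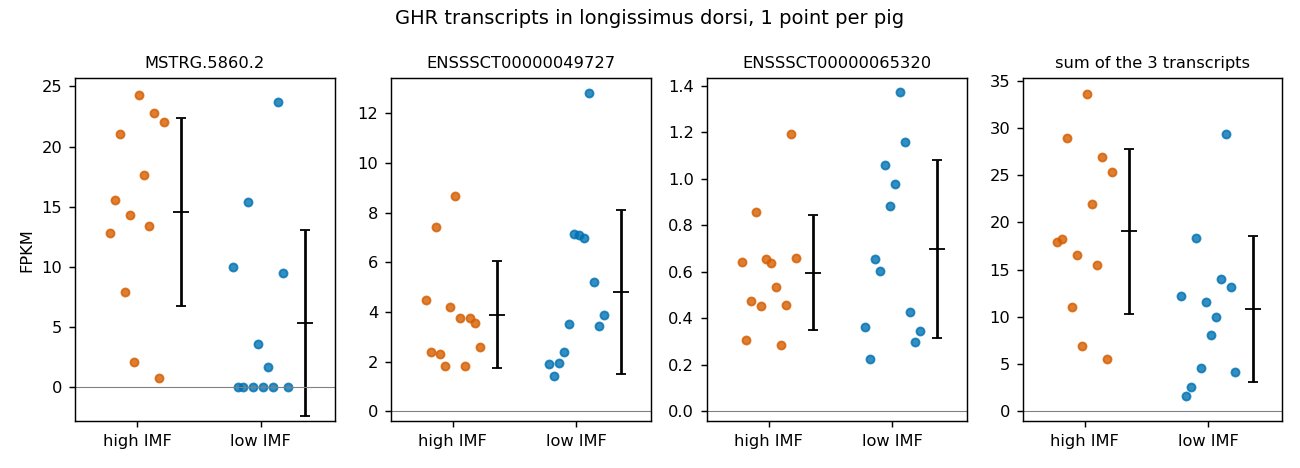
FPKM of the 3 GHR transcripts and of their sum in each pig, high IMF left and low IMF right, with the mean and SD as a black bar beside the points; each panel has its own scale. The points for MSTRG.5860.2 include 5 low IMF pigs listed at 0, and both groups reach about the same height (24.3 FPKM in high IMF and 23.7 FPKM in low IMF pigs).

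The share of each transcript in its gene was computed from the same FPKM values, so it restates the levels above. MSTRG.5860.2 made up 70.1 ± 23.7% of GHR FPKM in high IMF pigs (lowest 13.7%, median 76.6%, highest 87.2%) and 30.4 ± 37.5% in low IMF pigs (lowest 0%, median 8.22%, highest 83.8%). It was the most abundant GHR transcript in 10 of 12 high IMF pigs and in 4 of 12 low IMF pigs. In the other 2 high IMF pigs, animals 6 and 11, its share was 29.7% and 13.7%. The low IMF pigs fell far apart: animals 1, 4, 10 and 11 had shares of 71.8% to 83.8%, like most high IMF pigs, and 6 animals had under 1%. ENSSSCT00000049727 held 24.9% of the gene in high IMF pigs and 59.4% in low IMF pigs, and ENSSSCT00000065320 held 4.92% in high IMF pigs and 10.2% in low IMF pigs.

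On the log2 ratio of a transcript to the rest of its gene, the difference was 2.66 for MSTRG.5860.2 (SE 0.81, limma p 0.00292, adjusted p 0.950) and -2.11 for ENSSSCT00000049727 (SE 0.63, limma p 0.00276, adjusted p 0.950). For ENSSSCT00000065320 it was -1.13 (SE 0.45, limma p 0.0200, adjusted p 0.950). These 3 values depend on each other, since the shares of a gene sum to 100%. All 3 GHR shares, and none of the 4 shares of IGFBP4 and IGFBP5, had an unadjusted p under 0.05, against 4.83% of the 15165 shares tested. After adjustment limma called 0 of the 7, against 0.0% of all shares.

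**Figure D2:**
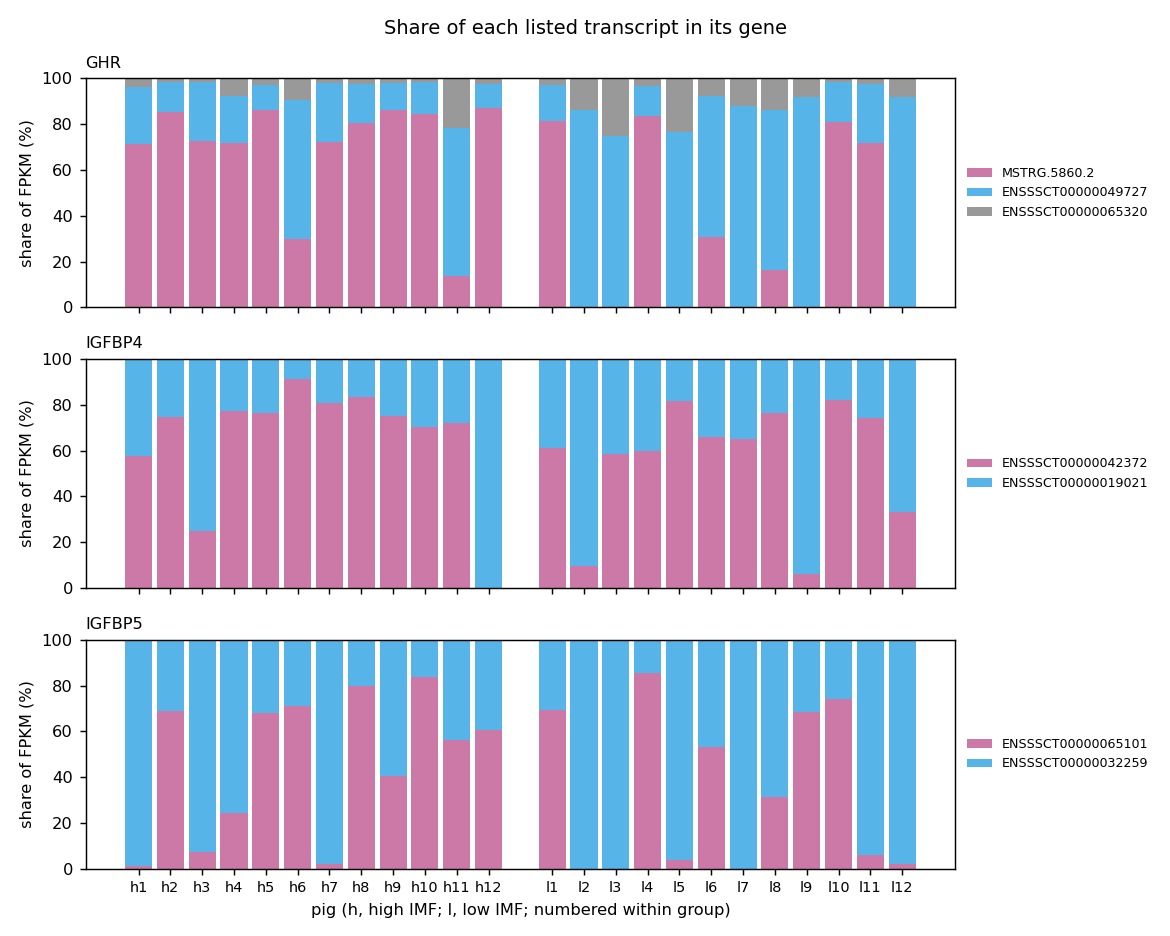
Share of each listed transcript in the summed FPKM of GHR, IGFBP4 and IGFBP5, 1 bar per pig, high IMF pigs at the left and low IMF pigs at the right. For GHR the bars of 6 low IMF pigs hold under 1% of MSTRG.5860.2, while 10 high IMF and 4 low IMF pigs hold over 70%.

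The animal identifiers begin with DLC1512 or DLC1601, which form 2 sets with 6 high and 6 low IMF pigs each. No source used here says what those digits stand for. In set DLC1512 MSTRG.5860.2 was at 16.9 ± 6.08 FPKM in high IMF pigs and 2.53 ± 3.91 FPKM in low IMF pigs (SD, n = 6 each). In set DLC1601 it was at 12.2 ± 9.11 FPKM in high IMF pigs and 8.09 ± 9.95 FPKM in low IMF pigs, with wide spread in both groups. The share was 80.1 ± 6.61% in high and 21.5 ± 32.0% in low IMF pigs of set DLC1512, and 60.2 ± 30.9% in high and 39.4 ± 43.3% in low IMF pigs of set DLC1601. The difference between the sets did not pass the test (limma p 0.167, adjusted p 0.9998, for the level). The GHR sum had a log2 fold change of 1.17 in set DLC1512 and 0.66 in set DLC1601.

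IGF1, the growth factor that growth hormone induces, has 1 listed transcript on chromosome 5 (81776422 to 81848048, plus strand, 4 exons, 879 bases). Its level was low in both groups, 0.637 ± 0.616 FPKM in high IMF pigs (lowest 0, median 0.510, highest 1.78) and 0.633 ± 0.601 FPKM in low IMF pigs (lowest 0.111, median 0.361, highest 1.94). High IMF animals 9 and 10 were listed at 0. The log2 fold change was -0.0036 (interval -0.40 to 0.39; limma p 0.985, adjusted p 0.998), and its sign turned in 10 of the 24 fits that left out 1 pig. The median IGF1 value stood on about 13.5 estimated reads, few for the value of a single pig. The part of read number in the spread of IGF1 between pigs was not tested. RefSeq gives IGF1 a span of 81762027 to 81909253, longer on both sides than the listed transcript of 879 bases, so reads outside that transcript are not in these values.

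IGF2, a growth factor that is expressed from the paternal copy in most tissues, has 1 transcript under its name, MSTRG.7039.11, an assembled isoform on the minus strand of chromosome 2 (1469186 to 1480842, 6 exons, 6112 bases). Its level was 13.2 ± 5.46 FPKM in high IMF pigs (lowest 5.76, median 11.5, highest 26.2) and 7.87 ± 3.07 FPKM in low IMF pigs (lowest 2.52, median 7.67, highest 14.7). The ranges overlapped, with 11 of 12 high IMF pigs above the low IMF median and 1 of 12 low IMF pigs above the high IMF median. The log2 fold change was 0.68 (SE 0.21, interval 0.26 to 1.11), with an unadjusted limma p of 0.00281 and an adjusted p of 0.334. It was 0.57 to 0.77 with 1 pig left out. In the authors' deposited table the fold of low over high IMF for MSTRG.7039.11 was 0.591, with a p-value of 0.003562 and q-values of 0.820, 0.547 and 0.287. As for GHR, the adipocyte marker sums moved with the groups, and their part in the IGF2 values was not tested. The F1 animals had 8 boars as sires, and the part of the sire in the IGF2 values was not tested.

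The IGF2 values differed most in 1 of the identifier sets. In set DLC1601 IGF2 was at 14.7 ± 6.14 FPKM in high IMF pigs (9.37 to 26.2) and 6.20 ± 2.38 FPKM in low IMF pigs (2.52 to 9.23; SD, n = 6 each). The log2 fold change in this set was 1.13 (limma p 0.000362, adjusted p 0.355). Within this set 4.03% of all genes had an unadjusted p under 0.05. In set DLC1512 IGF2 was at 11.7 ± 4.73 FPKM in high IMF pigs (5.76 to 20.3) and 9.54 ± 2.91 FPKM in low IMF pigs (6.73 to 14.7), with overlapping ranges and a log2 fold change of 0.23 (limma p 0.397, adjusted p 0.786). There 7.17% of all genes had an unadjusted p under 0.05, GHR among them (p 0.0285, adjusted p 0.668). The difference between the sets for IGF2 was 0.89 on the log2 scale (limma p 0.0287, adjusted p 0.998), against 3.29% of all genes with an unadjusted p under 0.05.

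MSTRG.7039.11 is 1 of 12 transcripts that the table puts in 1 assembled locus. The other 11 carry no gene name there, but all 11 overlap the span that RefSeq gives IGF2 (1469183 to 1496417). Together the 12 transcripts were at 97.5 ± 25.5 FPKM in high IMF pigs (lowest 59.9, median 97.6, highest 134) and 76.9 ± 30.4 FPKM in low IMF pigs (lowest 25.05, median 79.3, highest 118). For the whole locus the log2 fold change was 0.42 (SE 0.22, interval -0.03 to 0.87; limma p 0.0640, adjusted p 0.665), smaller than for the named transcript. The 11 unnamed transcripts summed to 84.3 ± 22.9 FPKM in high IMF pigs and 69.1 ± 28.8 FPKM in low IMF pigs (log2 fold change 0.37, limma p 0.118, adjusted p 0.704). The named transcript held 13.8 ± 4.61% of the locus in high IMF pigs and 11.2 ± 4.47% in low IMF pigs, which did not pass the test (limma p 0.188, adjusted p 0.961). These sums over the locus were chosen after seeing the data.

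Which IGF2 transcript led varied between single pigs. The unnamed MSTRG.7039.9 was the most abundant in 10 of 12 high IMF pigs and 9 of 12 low IMF pigs, with median shares of 43.2% in high IMF pigs and 48.8% in low IMF pigs. In the remaining 5 pigs it was at 1.28 to 2.99 FPKM and a different transcript led each time. In low IMF animal 5 that was MSTRG.7039.7, at 58.4 FPKM, which was at most 3.02 FPKM in the other 23 pigs. In high IMF animal 8 it was ENSSSCT00000048823, at 41.2 FPKM. The locus sums of these 2 pigs, 108 FPKM in low IMF animal 5 and 91.8 FPKM in high IMF animal 8, lay within the range of the others.

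**Figure D3:**
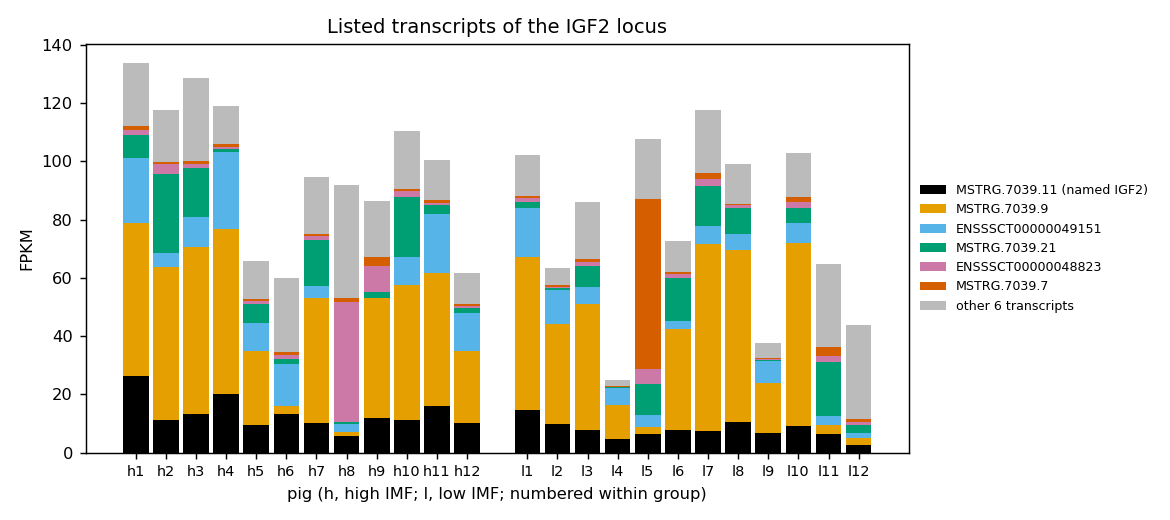
FPKM of the 12 transcripts of the IGF2 locus, stacked, 1 bar per pig, high IMF pigs at the left. The black base of each bar is the transcript named IGF2 (2.52 to 26.2 FPKM); the large MSTRG.7039.9 segment is nearly missing in 5 pigs, in which another transcript is the largest.

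Both IGF receptors had nearly the same levels in the 2 groups. IGF1R, the signalling receptor for IGF1 and IGF2, has 1 listed transcript on chromosome 1 (137387825 to 137691058, minus strand, 21 exons, 7118 bases). IGF1R was at 1.37 ± 0.600 FPKM in high IMF pigs (lowest 0.622, median 1.39, highest 2.31) and 1.34 ± 0.710 FPKM in low IMF pigs (lowest 0.553, median 1.05, highest 2.48). Its log2 fold change was 0.04 (interval -0.28 to 0.36; limma p 0.804, adjusted p 0.970), and -0.02 after TMM scaling. IGF2R, also the receptor for mannose 6-phosphate tags on lysosomal enzymes, lies on chromosome 1 (7368103 to 7472548, minus strand, 48 exons, 9010 bases). IGF2R was at 9.90 ± 2.97 FPKM in high IMF pigs (lowest 5.75, median 9.61, highest 16.0) and 9.94 ± 2.68 FPKM in low IMF pigs (lowest 5.06, median 9.84, highest 13.9), a log2 fold change of -0.01 (interval -0.33 to 0.31; limma p 0.946, adjusted p 0.991). After TMM scaling IGF2R was at -0.11 (limma p 0.379). For both receptors the 2 ranges overlapped almost fully, and the intervals reach from -0.33 to 0.36 on the log2(FPKM + 1) scale. That scale understates changes of low genes such as IGF1R, so its interval does not bound the change in FPKM itself. The authors' deposited fold of low over high IMF was 1.117 for IGF1R (deposited p-value 0.07549, smallest q-value 0.429). For IGF2R it was 1.131 (deposited p-value 0.1131, smallest q-value 0.453).

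**Figure D4:**
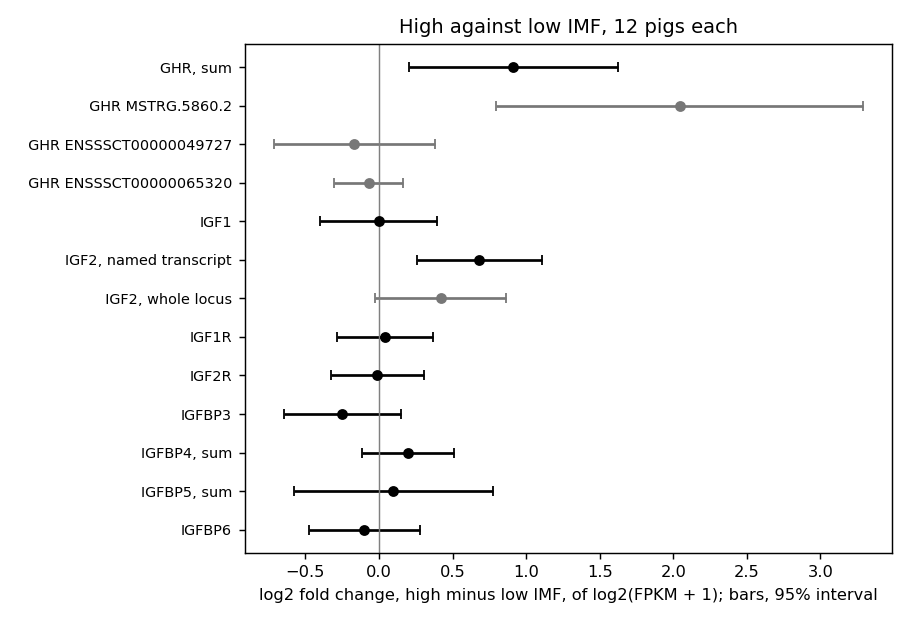
Log2 fold change of high minus low IMF on the log2(FPKM + 1) scale for the 9 genes (black) and for the GHR transcripts and the whole IGF2 locus (grey), with 95% intervals that are not adjusted for the number of genes. The intervals of the GHR sum, MSTRG.5860.2 and the named IGF2 transcript lie above 0, and the others include 0.

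The 4 binding proteins gave 4 log2 fold changes between -0.25 and 0.20, each with an interval that includes 0. IGFBP3 carries most IGF in blood and lies on chromosome 18 (50002921 to 50009655, plus strand, 5 exons, 1331 bases). IGFBP3 was at 2.71 ± 1.06 FPKM in high IMF pigs (lowest 1.56, median 2.38, highest 5.03) and 3.64 ± 2.25 FPKM in low IMF pigs (lowest 1.73, median 3.07, highest 9.63). The log2 fold change was -0.25 (interval -0.65 to 0.15; limma p 0.205, adjusted p 0.766). Low IMF animal 2, at 9.63 FPKM, widened that group, and without it the value was -0.13. Leaving out 1 pig at a time gave -0.32 to -0.13, and after TMM scaling the value was -0.33 (limma p 0.0867, adjusted p 0.999).

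IGFBP4 binds IGFs and mostly holds back their action; it lies on the minus strand of chromosome 12 (21962639 to 21980945). Its sum was 10.1 ± 3.09 FPKM in high IMF pigs (lowest 5.61, median 9.58, highest 17.0) and 8.66 ± 2.70 FPKM in low IMF pigs (lowest 5.64, median 7.86, highest 15.3), a log2 fold change of 0.20 (interval -0.12 to 0.51; limma p 0.209, adjusted p 0.767), and 0.09 after TMM scaling. Of its 2 reference transcripts the longer, ENSSSCT00000042372 (4908 bases), was at 6.54 ± 2.64 FPKM in high IMF pigs and 4.53 ± 2.40 FPKM in low IMF pigs. The shorter, ENSSSCT00000019021 (1824 bases), was at 3.55 ± 3.24 FPKM in high IMF pigs and 4.13 ± 3.79 FPKM in low IMF pigs. The longer transcript led in 10 of 12 high IMF pigs and 9 of 12 low IMF pigs, with shares of 65.3 ± 26.5% in high IMF pigs and 56.1 ± 26.0% in low IMF pigs. It was listed at 0 in high IMF animal 12, and without that pig its log2 fold change was 0.68 (unadjusted limma p 0.00828, adjusted p 0.537), against 0.43 with it (p 0.200, adjusted p 0.877). Over all 24 fits without 1 pig that p ran to 0.352. In set DLC1512 its share was 76.9 ± 4.69% in high IMF pigs and 47.4 ± 31.0% in low IMF pigs, and in set DLC1601 it was 53.7 ± 34.7% in high IMF pigs and 64.9 ± 18.6% in low IMF pigs; the difference between the sets had a limma p of 0.0527 (adjusted p 0.9998).

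IGFBP5, a binding protein that differentiating muscle cells of mice secrete, lies on the minus strand of chromosome 15 (118857471 to 118878593). Its sum varied 8.64-fold between pigs, at 8.48 ± 6.13 FPKM in high IMF pigs (lowest 2.31, median 7.62, highest 19.9) and 7.47 ± 4.93 FPKM in low IMF pigs (lowest 2.86, median 5.10, highest 16.9). The log2 fold change was 0.10 (interval -0.58 to 0.78; limma p 0.768, adjusted p 0.965), and -0.0036 after TMM scaling. ENSSSCT00000032259 (6118 bases) was at 5.93 ± 6.97 FPKM in high IMF pigs and 5.99 ± 5.73 FPKM in low IMF pigs. It held 98.6% and 97.8% of the gene in high IMF animals 1 and 7 and 100% in low IMF animal 7, the 3 pigs with the highest sums. ENSSSCT00000065101 (5401 bases) was at 2.55 ± 2.05 FPKM in high IMF pigs and 1.47 ± 1.46 FPKM in low IMF pigs, with a log2 fold change of 0.56 (limma p 0.101, adjusted p 0.833), and was listed at 0 in low IMF animals 2, 3 and 7. With these zeros the size depends on the pseudocount, and it was 1.32 with 0.1 (limma p 0.0637, adjusted p 0.793); with 1 pig per 9 shared identifier digits it was 0.34. The share of ENSSSCT00000032259 was 52.9 ± 30.8% in high IMF pigs and 67.2 ± 34.7% in low IMF pigs, and it led in 5 of 12 high IMF pigs and 7 of 12 low IMF pigs. The difference in share did not pass the test (limma p 0.311, adjusted p 0.969).

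IGFBP6, which prefers IGF2 over IGF1, had the highest level of the 9 genes. It lies on chromosome 5 (18353171 to 18357225, plus strand, 4 exons, 1193 bases). IGFBP6 was at 25.6 ± 10.4 FPKM in high IMF pigs (lowest 12.6, median 23.5, highest 42.8) and 26.1 ± 5.83 FPKM in low IMF pigs (lowest 15.5, median 26.0, highest 34.3), a log2 fold change of -0.10 (interval -0.48 to 0.28; limma p 0.588, adjusted p 0.924), and -0.21 after TMM scaling. The high IMF pigs spread wider than the low IMF pigs and reached beyond them at both ends.

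Over all 24 pigs the mean levels ran from IGFBP6 (25.9 ± 8.25 FPKM) through GHR (14.9 ± 9.09), IGF2 by its named transcript (10.6 ± 5.13), IGF2R (9.92 ± 2.76), IGFBP4 (9.38 ± 2.93), IGFBP5 (7.98 ± 5.46), IGFBP3 (3.17 ± 1.78) and IGF1R (1.35 ± 0.643) to IGF1 (0.635 ± 0.595 FPKM; SD, n = 24). IGF2, IGF2R, IGFBP4 and IGFBP5 cannot be ordered within their spread: IGF2 was above IGF2R in 11 of 24 pigs, IGF2R above IGFBP4 in 15, and IGFBP4 above IGFBP5 in 15. GHR was above IGF2 in 15 pigs, with a mean difference of 4.37 ± 10.02 FPKM. IGFBP6 was above GHR in 18 pigs and IGFBP5 above IGFBP3 in 18. IGFBP3 was above IGF1R, and IGF1R above IGF1, in 23 of 24 pigs. With its unnamed transcripts included, the IGF2 locus would stand first.

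Between animals, some of the 9 genes varied together. Pearson r of log2(FPKM + 1) was computed for all 36 pairs over 24 pigs, with two-sided permutation tests adjusted over the pairs. An adjusted permutation p under 0.05 was found for 5 pairs, all with positive r. The share of such pairs among other genes was not computed, so these r are not shown to be particular to the 9 genes. IGF1R and IGF2R had an r of 0.82 and a rho of 0.83, with an adjusted permutation p of 0.00036 each. The unadjusted p of 1e-05 is the smallest that 100000 resamples can give. For this pair r was 0.79 within high IMF pigs and 0.86 within low IMF pigs, 0.84 in set DLC1512 and 0.89 in set DLC1601, and 0.81 without the 2 pigs farthest from the IGF1R median. IGF1 and IGF1R had an r of 0.65 and a rho of 0.61 (permutation p 0.00091 and 0.002, adjusted p 0.0164 and 0.0232). It was 0.57 within high IMF pigs, 0.73 within low IMF pigs, 0.80 in set DLC1512, 0.50 in set DLC1601 and 0.58 without 2 pigs. IGF1 and IGF2R had an r of 0.61 and a rho of 0.61 (permutation p 0.00167 and 0.00223, adjusted p 0.0200 and 0.0232), with r of 0.70 in high IMF pigs, 0.51 in low IMF pigs, 0.72 in set DLC1512, 0.65 in set DLC1601 and 0.55 without 2 pigs.

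GHR followed IGF2R with an r of 0.60 and a rho of 0.59 (permutation p 0.00225 and 0.00323, adjusted p 0.0202 and 0.0233). Within high IMF pigs that r was 0.85, within low IMF pigs 0.58, in set DLC1512 it was 0.39, in set DLC1601 0.72, and without 2 pigs 0.60. The 2 pigs left out were low IMF animals 2 and 3. High IMF animal 7 and low IMF animal 10 had the highest GHR (33.6 and 29.3 FPKM) and IGF2R (16.0 and 13.9 FPKM) of their groups. In their libraries the 10 most abundant genes took the smallest share (20.2% and 18.5%). The r without these 2 libraries was not computed. GHR and IGF1R had an r of 0.55 and a rho of 0.59 (permutation p 0.00565 and 0.00258, adjusted p 0.0407 and 0.0232), with r of 0.80 in high IMF pigs, 0.47 in low IMF pigs, 0.47 in set DLC1512, 0.65 in set DLC1601 and 0.50 without 2 pigs. Both GHR pairs were at an r of 0.41 after TMM scaling, with an adjusted permutation p of 0.171, so they depend on how the libraries are scaled. The 3 other pairs kept an adjusted permutation p under 0.05 after TMM scaling, with r of 0.70 for IGF1R and IGF2R, 0.65 for IGF1 and IGF1R, and 0.57 for IGF1 and IGF2R. IGF2 was in none of the 5 pairs.

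**Figure D5:**
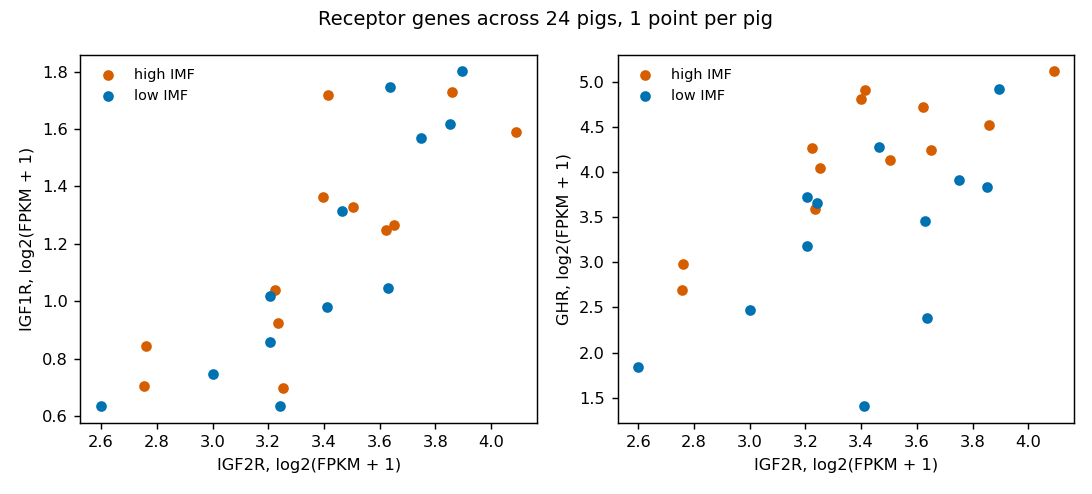
Levels of IGF1R (left) and GHR (right) against IGF2R on the log2(FPKM + 1) scale, 1 point per pig, high and low IMF in 2 colours. The 2 groups lie on the same band for IGF1R (r 0.79 in high and 0.86 in low IMF pigs), and the low IMF pigs scatter more widely for GHR (r 0.58, against 0.85 in high IMF pigs).

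Across the 24 pigs, the genes whose levels were most like those of GHR, IGF1, IGF2 and IGFBP5 were found by Pearson r over the genes with a symbol and a mean of at least 1 FPKM, 8011 for GHR, IGF2 and IGFBP5 and 8012 for IGF1. All these genes share the same libraries, and r is given as a description. For GHR they were ZBTB38, a zinc finger protein that binds methylated DNA (r 0.83), the peptidase PGPEP1 (0.81) and ZFYVE26, a protein of lysosome recycling (0.80). For IGF1 they were the surface antigen gene XG (0.86), NAPEPLD, an enzyme that releases fatty acid ethanolamides (0.85), and the growth factor PDGFD (0.85). IGFBP5 was nearest to the adenylyl cyclase ADCY1 (0.72), DDIT4L, an inhibitor of mTOR signalling (0.70), and the palmitoyltransferase ZDHHC8 (0.70). IGF2 had the weakest neighbours, the splicing factor EFTUD2 (0.69), the sulfotransferase SULT1A3 (0.68) and PRPSAP1, which binds the enzyme that makes the ribose precursor of nucleotides (0.66). The r of IGF2 with EFTUD2 was 0.17 within high IMF pigs and 0.80 within low IMF pigs.

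Of 15 genes that carry or curb the signal of GHR, 12 were tested, and limma called 0 in either direction after adjustment, against 0.051% of all genes. Their median log2 fold change was 0.08, and that of all genes 0.08. Positive values were 8 of 12, against 73.4% of all genes, and 5 of 12 after TMM scaling, against 49.7%. At an unadjusted p under 0.05 there were 0, against 7.68% of all genes. The kinase JAK2 was at 1.05 ± 0.410 FPKM in high IMF pigs and 0.913 ± 0.313 FPKM in low IMF pigs (log2 fold change 0.09, limma p 0.397, adjusted p 0.850). CISH, a STAT5-induced inhibitor of the receptor, was at 2.71 ± 2.29 FPKM in high IMF pigs and 4.31 ± 4.40 FPKM in low IMF pigs (log2 fold change -0.33, limma p 0.369, adjusted p 0.840). SOCS1, of the same inhibitor family, had a log2 fold change of -0.15, STAT3 of 0.21 and the phosphatase PTPN6 of 0.13, with adjusted limma p-values of 0.825, 0.704 and 0.834. After TMM scaling STAT3 was at 0.11 and JAK2 at 0.04.

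Of 16 other genes that bind IGFs or their RNA, or cut the binding proteins, 7 were tested and limma called 0, against 0.051% of all genes. Their median log2 fold change was 0.10. Of the 7, 6 were positive, against 73.4% of all genes, and 4 after TMM scaling, against 49.7%. An unadjusted p under 0.05 was found for 2, against 7.68% of all genes, and for 1 after TMM scaling, against 5.08%. IGF2BP2, a protein that binds IGF2 mRNA, was at 1.43 ± 0.556 FPKM in high IMF pigs and 0.659 ± 0.535 FPKM in low IMF pigs (log2 fold change 0.58, SE 0.16, limma p 0.00162, adjusted p 0.269). IGFBP7, a binding protein of low affinity made by vessels, was at 36.9 ± 7.46 FPKM in high IMF pigs and 29.5 ± 6.49 FPKM in low IMF pigs (log2 fold change 0.32, SE 0.13, limma p 0.0194, adjusted p 0.560). The value of IGF2BP2, a gene of low level, was 1.29 with a pseudocount of 0.1 (adjusted limma p 0.363). After TMM scaling IGF2BP2 was at 0.52 (unadjusted limma p 0.00457) and IGFBP7 at 0.21 (p 0.101). The 8 endothelial markers, all listed, summed to 53.4 ± 11.14 FPKM in high IMF pigs (37.5 to 69.8) and 45.8 ± 10.9 FPKM in low IMF pigs (23.4 to 65.7), and their part in the IGFBP7 values was not tested. STC2, an inhibitor of IGFBP proteases, the protease ADAM9 and IGFBP2 had log2 fold changes of 0.10, 0.10 and -0.12, with adjusted limma p-values of 0.853, 0.876 and 0.900. After TMM scaling they were at 0.06, 0.02 and -0.21.

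Downstream of IGF1R and the insulin receptor, 25 of 35 genes were tested, and limma called 0, against 0.051% of all genes. At an unadjusted p under 0.05 there were 0, against 7.68%. Their median log2 fold change was 0.08. Positive values were 17 of 25, against 73.4% of all genes, and 11 of 25 after TMM scaling, against 49.7%. After TMM scaling the medians of the 3 lists were -0.01, 0.04 and -0.01, in the order given here. The transcription factor FOXO4, which insulin and IGF signalling keeps out of the nucleus, came nearest with 15.3 ± 3.03 FPKM in high IMF pigs and 12.6 ± 3.83 FPKM in low IMF pigs (log2 fold change 0.29, SE 0.14, limma p 0.0502, adjusted p 0.651). PIK3R1, a regulatory subunit of PI3-kinase, was at 9.17 ± 3.66 FPKM in high IMF pigs and 6.96 ± 2.01 FPKM in low IMF pigs (log2 fold change 0.30, limma p 0.131, adjusted p 0.717). The lipid phosphatase INPPL1 and the mTOR activator RHEB had log2 fold changes of 0.65 and 0.16, with adjusted limma p-values of 0.770 and 0.773. INPPL1 was at 20.6 ± 10.7 FPKM in high IMF pigs and 13.1 ± 9.50 FPKM in low IMF pigs. After TMM scaling FOXO4 was at 0.18, PIK3R1 at 0.19 and RHEB at 0.05.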

How the data were processed

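The authors deposited 1 table of FPKM per assembled transcript and pig. That the unit is FPKM was read from the values and the columns beside them. It also holds the authors' deposited fold change (a ratio of low over high IMF), p-value and 3 q-values per transcript, per the file headers; no source used here says how they were computed. HISAT2 2.0.5, StringTie 1.3.3 and Sscrofa11.1 are named, per the submitters' processing notes. Each listed transcript is above 0 in at least 19 of 24 pigs, so sparser transcripts were not analysed here. Coordinates are those of the table and were set beside RefSeq's Sscrofa11.1 gene spans.

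The table states no depth. Depth was estimated from the smallest step of FPKM times length. The estimate takes 1 read as 150 bases, and it made 75.0% to 86.1% of low values whole within 0.05 base, against 29.5% to 53.6% for the next step. The search covered a fixed window of depths, and a multiple of a fitting depth fits as well. The true depth could therefore be a fraction of the estimate. Whether reads or pairs were counted is also unknown, so depths and read numbers are relative.

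FPKM was summed per gene symbol and chromosome, or per locus without a symbol. Limma 3.58.1 in R 4.3.3 (trend, robust moderation) was fitted on log2(FPKM + 1) of genes or transcripts that averaged 0.5 FPKM or more, which understates changes of low genes. Shares were fitted as log2 of transcript over rest, with 0.5 added to each. All 9 genes and 13 transcripts passed the filter. Benjamini-Hochberg adjustment ran over all features. Scripts were tested on simulated data. The alternatives were TMM and upper-quartile scaling, other filters and pseudocounts, no robust moderation, the identifier digits as a term, leaving out pigs, and reference transcripts alone. Within identifier sets, the model had 4 group means. Where relatives are among the pigs is not given. 3 pairs of pigs within a group share the first 9 digits of their identifiers. Named beside the 9 genes were the 5 genes of each list with the smallest p (1 of them is not reported here), and the 3 genes most like each of GHR, IGF1, IGF2 and IGFBP5. The genes and lists were chosen with earlier results of these data known.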

Additional observations from a re-analysis of the deposited data

How the results depend on the processing

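No gene, transcript or share of the 9 genes was called under any setting run, which includes 24 fits that each left out 1 pig. No paired analysis was possible because the replicate numbers are in order of accession and the labels give none. The GHR sum kept a positive log2 fold change under all settings except with reference transcripts alone (-0.16), and IGF2, by its named transcript, ran from 0.57 to 0.82 over the settings that gave it a value, while all 12 transcripts of its locus together were at 0.42. Reference transcripts alone gave IGF2 no value. Without high IMF animal 7 and low IMF animal 10, the libraries in which the 10 most abundant genes take the smallest share, the GHR sum was at 0.98 and IGF2 at 0.73.

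Log2 fold changes near 0 turned sign, none of them called. With TMM and upper-quartile scaling, IGF1R was at -0.0167 and -0.0235 as a gene and -0.0136 and -0.0156 as a transcript, and the IGFBP5 sum at -0.0036 and -0.0106. The IGFBP5 sum was at -0.10 without those 2 pigs. With 1 pig per 9 shared identifier digits, IGF1R was at -0.0343, IGFBP6 (as a gene and as a transcript) at 0.0308, ENSSSCT00000065320 of GHR at 0.0109 and ENSSSCT00000032259 of IGFBP5 at 0.0603. Leaving out 1 pig gave ranges of -0.0809 to 0.0805 for IGF1, -0.0086 to 0.10 for IGF1R, -0.0840 to 0.0478 for IGF2R, -0.0303 to 0.21 for the IGFBP5 sum, -0.32 to 0.0149 for ENSSSCT00000019021 of IGFBP4 and -0.35 to 0.0187 for ENSSSCT00000032259 of IGFBP5. The cause was not tested. After TMM scaling, r was 0.41 for GHR with IGF2R and for GHR with IGF1R, and IGF2 with IGF1R had an r of -0.55 with an adjusted permutation p of 0.0436 (24 pigs), against -0.35 and 0.322 without it and -0.33 and 0.350 with a pseudocount of 0.1. Over all genes, the share with a positive log2 fold change was 73.4% as reported, 49.7% with TMM and 47.1% with upper-quartile scaling. Without high IMF animal 7 and low IMF animal 10 limma called 18 genes with positive and 3 with negative values, against 5 and 1 with all pigs. The number of pigs limits the precision of each difference. IGF1 stood on few estimated reads, and the part of depth in its spread was not tested.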
